A study of Mus musculus with 10 samples.

Results

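The 10 genes described here are those of the FOXO transcription factors Foxo1, Foxo3 and Foxo4, and 7 others linked to cell-cycle withdrawal: Txnip, Klf9, Ccng2, Btg1, Tob1, Ypel3 and Rbl2. They were taken by name from the 46517 genes of each count table. All 10 were found and all 10 were among the 13986 genes kept by the filter on low counts. They were followed in GFP+ and GFP- tumour cells sorted from allografted malignant peripheral nerve sheath tumours (MPNST) of the mouse, a sarcoma related to Schwann cells. The 5 allograft models (A, B, C, D and E) gave 1 GFP+ and 1 GFP- library apiece, so the 10 libraries form 5 pairs. GFP+ cells express a transgene called CGD in the labels and GFP- cells do not. The sources used here do not say what CGD stands for or which promoter drives it, nor do they give the tumour genotype, the host animals or their age, or whether a model is 1 animal. Both populations share the sort that removed wild-type and dead cells.

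FOXO factors are forkhead transcription factors that act downstream of insulin and growth factor signalling. AKT and the related SGK kinases phosphorylate them, 14-3-3 proteins then hold them in the cytoplasm, and when the signal drops they enter the nucleus and switch on genes that slow the cell cycle, resist oxidative stress and alter metabolism. Since much of this control acts on the protein, the RNA level of a FOXO gene is not its activity. In quiescent cells the pocket protein p130, the product of Rbl2, joins E2F factors and the MuvB core in the DREAM complex, which represses genes of cell division, and BTG and TOB proteins recruit the CCR4-NOT deadenylase to messenger RNAs. Nerve sheath tumours often lack NF1, a brake on RAS, and RAS signalling feeds the kinases above FOXO.

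RefSeq promoter sequences (build GRCm38.p6, the assembly also called mm10) were matched for 9 of the 10 genes, all except Foxo4. The FOXO binding element GTAAACA, searched on both strands in the 250 bases before the start site, was present in 3 of these 9 promoters, those of Txnip, Klf9 and Btg1, and in 3.17% of all 32851 promoters of the table. The insulin-response letters CAAAACA were found in 1 of the 9, Ccng2, and in 5.56% of all promoters. The E-box CACGTG, bound by MYC and USF factors, was found as this exact string in 0 of the 9 and in 6.02% of all. Looser E-box forms, among them the sites of Mondo factors, were not searched, so their presence is not known from this count. The letters TTTGAA, the cell-cycle homology region that DREAM binds at some promoters, were found in 1 of the 9, Rbl2, and in 16.0% of all. GTAAACA and CAAAACA share their last 5 letters, and each was searched as its own exact string. The 3 promoters with GTAAACA are shown because 1 of them belongs to Txnip, the member with the smallest p between the populations. Capitals mark the element, which lies at -121 to -115 from the start site in Txnip, at -100 to -94 in Klf9 and, on the opposite strand, at -204 to -198 in Btg1. Such a match describes the letters and is not evidence of binding.
Txnip, chr3:96557707-96557956, plus strand: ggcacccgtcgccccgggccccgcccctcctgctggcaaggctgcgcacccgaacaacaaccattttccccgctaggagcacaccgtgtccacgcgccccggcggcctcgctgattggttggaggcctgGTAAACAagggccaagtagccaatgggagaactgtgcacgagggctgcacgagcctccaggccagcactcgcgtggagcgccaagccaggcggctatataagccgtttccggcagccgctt
Klf9, chr19:23140976-23141225, plus strand: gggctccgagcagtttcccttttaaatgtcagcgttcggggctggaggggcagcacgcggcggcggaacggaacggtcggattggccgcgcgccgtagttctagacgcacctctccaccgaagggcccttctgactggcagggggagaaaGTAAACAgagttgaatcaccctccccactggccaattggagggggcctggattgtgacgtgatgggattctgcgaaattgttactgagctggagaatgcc
Btg1, chr10:96616751-96617000, plus strand: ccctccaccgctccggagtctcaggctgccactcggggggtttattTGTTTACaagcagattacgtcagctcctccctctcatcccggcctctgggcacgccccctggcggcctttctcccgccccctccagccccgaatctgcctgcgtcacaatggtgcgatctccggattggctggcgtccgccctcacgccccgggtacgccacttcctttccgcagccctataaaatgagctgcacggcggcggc

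The libraries held 15978673 to 22082207 reads in genes. Levels are given as CPM, the usual scaling of a gene's reads to a common library total, here the reads in genes corrected for composition by TMM. Members had 449 to 7360 reads in a library, and the exact 95% Poisson interval of the lowest count was 408 to 493 reads, which covers counting error only. Schwann markers differed widely: Sox10 lay between 0 and 109.5 CPM and S100b at 2.84 CPM or less. Fibroblast markers were abundant, their 10 genes summing to 18291 to 32829 CPM in GFP+ cells, against 18088 to 40870 CPM in GFP- cells. Markers of other cell types were scarce. The 14 leukocyte markers summed to 9.18 to 18.3 CPM in GFP+ cells, against 8.34 to 23.5 CPM in GFP- cells, with Ptprc at 0.46 CPM or less and Cd3g at 0 everywhere. The 10 endothelial markers summed to 7.14 to 17.9 CPM in GFP+ cells, against 4.97 to 23.5 CPM in GFP- cells. Those of muscle (8), adipocytes (6) and erythroid cells (6) stayed at or under 21.4, 4.92 and 1.2 CPM.

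Levels between genes were compared per length of exon. Ypel3 stood highest at 63.4 ± 20.2 CPM per kilobase (SD over 10 libraries), followed by Btg1 (47.8 ± 13.9), Txnip (35.5 ± 10.9), Klf9 (28.1 ± 6.58) and Foxo3 (24.4 ± 9.30). Below them came Tob1 (15.5 ± 3.69), Ccng2 (13.2 ± 3.44), Foxo4 (10.5 ± 1.89), Rbl2 (8.16 ± 2.8) and Foxo1 (5.13 ± 1.21). Ypel3 exceeded 95.7% of all tested genes on this scale and Foxo1 exceeded 46.9%. The order of neighbours held in 6 to 9 of 10 libraries, with 6 for Klf9 over Foxo3. The ranges of mean and SD overlapped between all neighbours, and the 2 libraries of a model are not independent. Among the FOXO genes Foxo3 was thus the main transcript, and Foxo6 (0.155 ± 0.139 CPM per kilobase) was hardly detected and not tested.

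**Figure D1:**
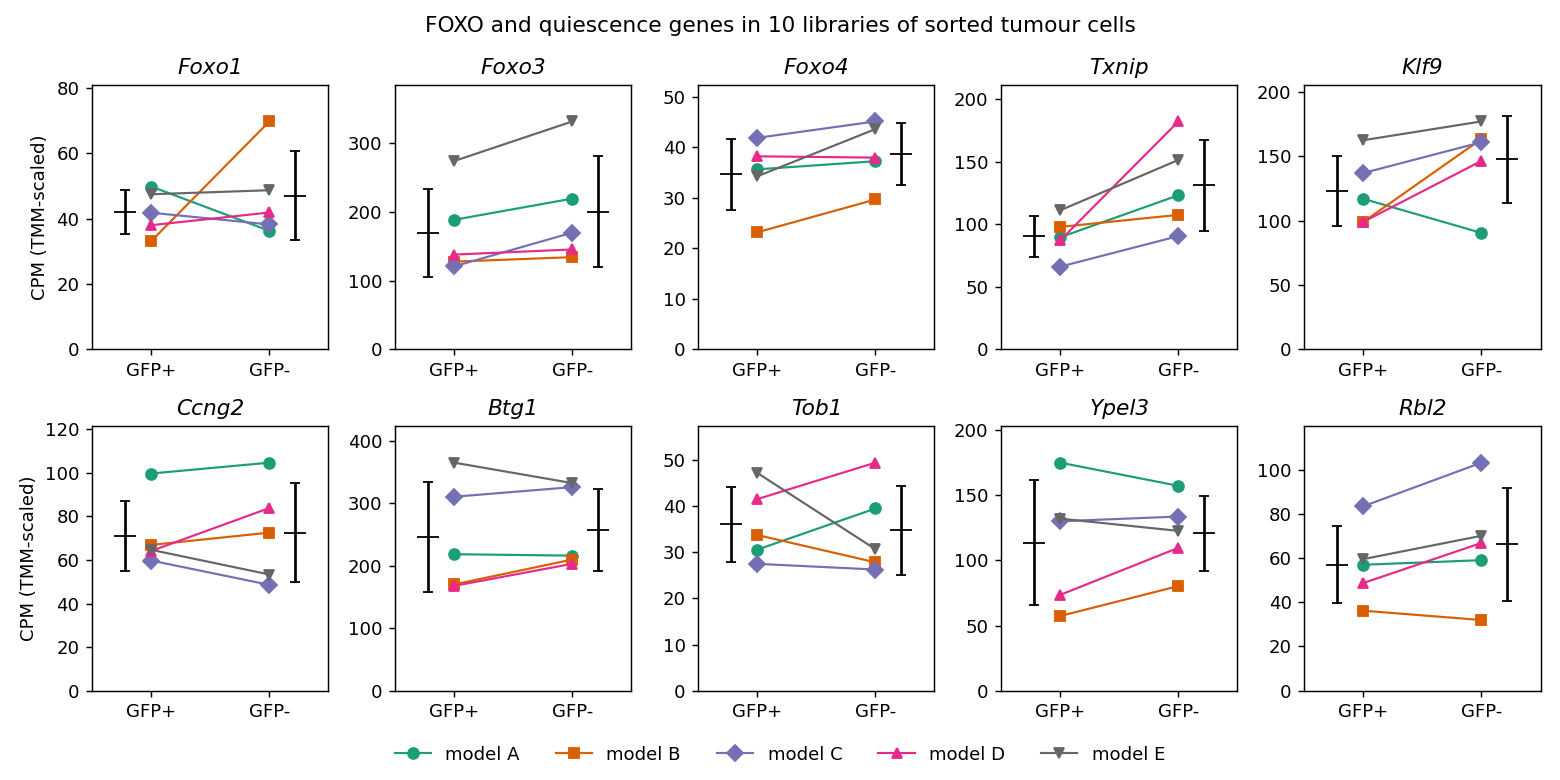
CPM of each member (y axis, from 0) in GFP+ and GFP- cells, with a line for each of the 5 tumour models and, at the sides, the mean and SD of 5 libraries. The lines of Txnip and Foxo3 all slope the same way, lower in GFP+ cells. Those of Foxo1, Foxo4, Klf9, Ccng2, Btg1, Tob1, Ypel3 and Rbl2 slope both ways.

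The comparison of the populations asks how the members differ when cells with the transgene are set against cells without it from the same allograft model. Txnip and Foxo3 had lower values in GFP+ cells in 5 of 5 pairs. With edgeR's quasi-likelihood test, with the model as a block, 0 of the 10 members had a Benjamini-Hochberg adjusted p under 0.05, and 0% of the 13986 tested genes did. At an unadjusted p under 0.05, 2 of the 10, Txnip and Foxo3, were lower and 0 were higher, where over all genes 3.49% were lower and 5.5% higher. The same 2 of 10 were lower in every pair, against 4.66% of all tested genes lower and 5.11% higher in every pair. Fitted values lay below 0 for 9 of 10 members and for 50.7% of all genes. The 9 include Ccng2, whose value was -0.00066 (SE 0.11). The median fitted log2 difference of the members was -0.17, beside -0.0028 over all tested genes. The values of GFP+ and GFP- cells overlapped for all 10 members, and did not overlap for 0.172% of all genes. In bulk RNA, fewer cells that express a gene and less RNA per cell cannot be told apart.

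Of the FOXO factors, Foxo3 (ENSMUSG00000048756, chromosome 10, 42181841 to 42276755), the broadly expressed family member, had the highest level. It stood at 189, 128, 121, 138 and 274 CPM in GFP+ cells of models A to E, against 219, 134, 169.9, 145 and 332 CPM in GFP- cells. GFP+ cells were lower in each of the 5 pairs, least in B and D and most in C, and the groups overlapped because models differed more than populations. The fitted log2 difference was -0.23 (SE 0.087, adjusted p = 0.508 by edgeR), or 0.855-fold.

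Foxo1 (ENSMUSG00000044167, chromosome 3, 52268336 to 52353221), the insulin-responsive factor of metabolic tissues and endothelium, went different ways in different models. Its levels in models A to E were 49.8, 33.1, 41.8, 38.0 and 47.4 CPM in GFP+ cells, against 36.2, 69.7, 38.2, 41.9 and 48.7 CPM in GFP- cells. The GFP- library of model B was the highest of all 10 and its GFP+ partner the lowest, a log2 difference of -1.07, while the difference was 0.46 in pair A. The fitted difference was -0.13 (SE 0.20, adjusted p = 0.899 by edgeR), and it was -0.28 without pair A, 0.10 without B and -0.20 without C. Foxo4 (ENSMUSG00000042903, chromosome X, 101254528 to 101260873), the X-linked member, had 35.7, 23.2, 41.9, 38.2 and 34.3 CPM in GFP+ cells, against 37.3, 29.7, 45.1, 38.0 and 43.6 CPM in GFP- cells. It was lower in GFP+ cells in 4 of 5 pairs, with pair D near 0 (log2 0.0096), and fitted at -0.17 (SE 0.089, adjusted p = 0.612 by edgeR).

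Txnip (ENSMUSG00000038393, chromosome 3, 96557957 to 96561883) encodes an arrestin-fold protein that binds thioredoxin and restrains glucose uptake, and is induced by FOXO and Mondo factors. It had 89.7, 98.0, 66.2, 87.3 and 111 CPM in GFP+ cells of models A to E, against 123, 108, 90.7, 182 and 152 CPM in GFP- cells. Every pair was lower in GFP+ cells, by log2 differences of -0.46, -0.14, -0.45, -1.06 and -0.45, so that D differed most and B least. Its mean over 5 libraries was 90.5 CPM (SD 16.5) for GFP+ cells, against 131 CPM (SD 36.4) for GFP- cells. The fitted log2 difference was -0.51 (SE 0.13, 0.702-fold), with an adjusted p of 0.372 by edgeR. DESeq2 with the same block gave -0.51 and an adjusted p of 0.0415, a call that 0.372% of the genes it tested received in the lower direction, so the call depends on the tool. Without pair D the edgeR value was -0.37 and without pair B -0.60. An antisense gene, Gm15441, spans the Txnip locus on the other strand at 0.46 to 2.16 CPM, and 99.99% of the stranded reads in Txnip were counted in the sense used here.

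Klf9 and Ccng2 each had pairs in both directions. Klf9 (ENSMUSG00000033863, chromosome 19, 23141226 to 23168134) is a Krüppel-like zinc finger factor induced by glucocorticoid and thyroid hormone. It had 117, 99.1, 137, 99.1 and 163 CPM in GFP+ cells, against 90.5, 164, 161, 146 and 177 CPM in GFP- cells. It was lower in GFP+ cells of B, C, D and E and higher in A, and fitted at -0.26 (SE 0.15, adjusted p = 0.665 by edgeR), or -0.42 without pair A and -0.14 without pair B. Ccng2 (ENSMUSG00000029385, chromosome 5, 93267257 to 93276231), an unconventional cyclin that restrains the cell cycle, had 99.7, 66.9, 59.8, 64.2 and 64.7 CPM in GFP+ cells, against 105, 72.6, 48.6, 83.9 and 53.4 CPM in GFP- cells. Model A was high in both populations. The difference was below 0 in 3 pairs and above 0 in C and E, and the fitted value was -0.00066 (SE 0.11, adjusted p = 0.999 by edgeR), whose sign turned under library totals, under limma voom and without pair A, B or D.

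The antiproliferative genes Btg1, Tob1 and Ypel3 also had mixed signs. Btg1 (ENSMUSG00000036478, chromosome 10, 96617006 to 96622809), a cofactor of the CCR4-NOT deadenylase first found in leukaemia, had 218, 170.2, 311, 168 and 365 CPM in GFP+ cells, against 216, 210.0, 326, 203 and 332 CPM in GFP- cells. It was lower in GFP+ cells of B, C and D and fitted at -0.099 (SE 0.092, adjusted p = 0.80 by edgeR), with -0.048 without pair B, -0.055 without D and -0.17 without E. Tob1 (ENSMUSG00000037573, chromosome 11, 94211454 to 94215495), its relative, was the only member with a fitted value above 0, at 0.069 (SE 0.15, adjusted p = 0.938 by edgeR), or 0.17 without pair A, 0.016 without B, 0.15 without D and -0.085 without E. It had 30.5, 33.7, 27.5, 41.5 and 47.2 CPM in GFP+ cells, against 39.5, 27.8, 26.2, 49.4 and 30.7 CPM in GFP- cells, with the widest gap, 0.62, in pair E. Ypel3 (ENSMUSG00000042675, chromosome 7, 126776955 to 126780514), a zinc-binding protein known as a p53 target that can drive senescence, had 175, 57.3, 130, 73.5 and 132 CPM in GFP+ cells, against 157, 80.3, 134, 109.6 and 123 CPM in GFP- cells. GFP+ cells were lower in B, C and D, by log2 differences of -0.49, -0.04 and -0.58, and higher in A and E, by 0.15 and 0.11. Ypel3 fitted at -0.17 (SE 0.13, adjusted p = 0.746 by edgeR), with -0.25 without pair A, -0.086 without B, -0.064 without D and -0.25 without E.

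Rbl2 (ENSMUSG00000031666, chromosome 8, 91070057 to 91123844), the p130 gene, had 57.0, 36.2, 83.5, 48.7 and 59.6 CPM in GFP+ cells, against 59.1, 32.0, 103, 66.9 and 70.1 CPM in GFP- cells. It was lower in GFP+ cells in 4 of 5 pairs and higher in B, and fitted at -0.18 (SE 0.10, adjusted p = 0.647 by edgeR), or -0.11 without pair D. Model C was the highest and model B the lowest in both populations. Aktip overlaps Rbl2 on the other strand at 13.1 to 24.0 CPM. Of the stranded reads in Rbl2, 96.9% were in the sense counted here, the lowest share of the 10 members.

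**Figure D2:**
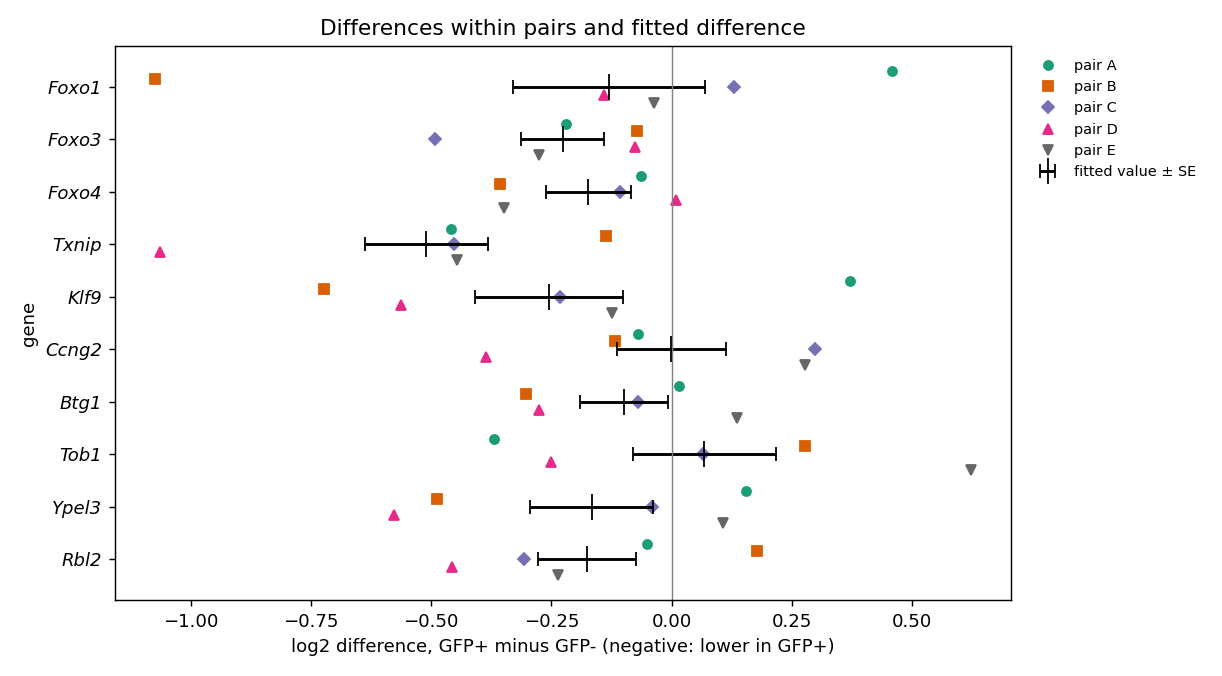
Log2 difference, GFP+ minus GFP-, of each member in each of the 5 pairs (coloured points) and the fitted value with its standard error (black). Only Txnip and Foxo3 have all 5 points left of 0, and the pair B point of Foxo1 and the pair D point of Txnip lie farthest out, at -1.07 and -1.06.

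The members' differences are given here by pair, as a description. In pair D 9 of 10 members were lower in GFP+ cells (median log2 difference -0.33), in pair B 8 (-0.22), in pair C 7 (-0.089), and in A and E 6 each (-0.058 and -0.081). For 8 of the 10 members the lowest of the 5 differences was in B or D. Over all tested genes the median log2 differences were -0.0028, 0.024, -0.0068, 0.0032 and 0.0010 in A to E. The shares of all tested genes that these counts would be set against were not computed. The counts therefore do not show a trait particular to the members. Genes of cell division, 28 in a list that covers mitosis and replication, had medians of 0.02, 1.62, 0.37, 1.10 and 0.42 in the 5 pairs, in the order A to E. The pairs with the highest cell-division values were therefore also B and D. Not every member followed this order. Foxo3 had its smallest differences in B (-0.071) and D (-0.076), and Txnip had its smallest in B (-0.14). The 9 Schwann markers tested had medians of 0.45, 1.35, 1.15, 2.41 and 0.56 in the same order. Fibroblast markers had medians of -0.43 in B and -0.63 in D, against 0.25, 0.068 and 0.0052 in A, C and E. A list of 20 genes that can respond to dissociation of tissue (immediate-early, heat shock) had medians of -0.25, -0.042, -0.54, -0.88 and 0.57 in A to E. The part of these lists in the members' values was not tested. With pair B left out the members' fitted median was -0.11, and with pair D left out it was -0.12.

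**Figure D3:**
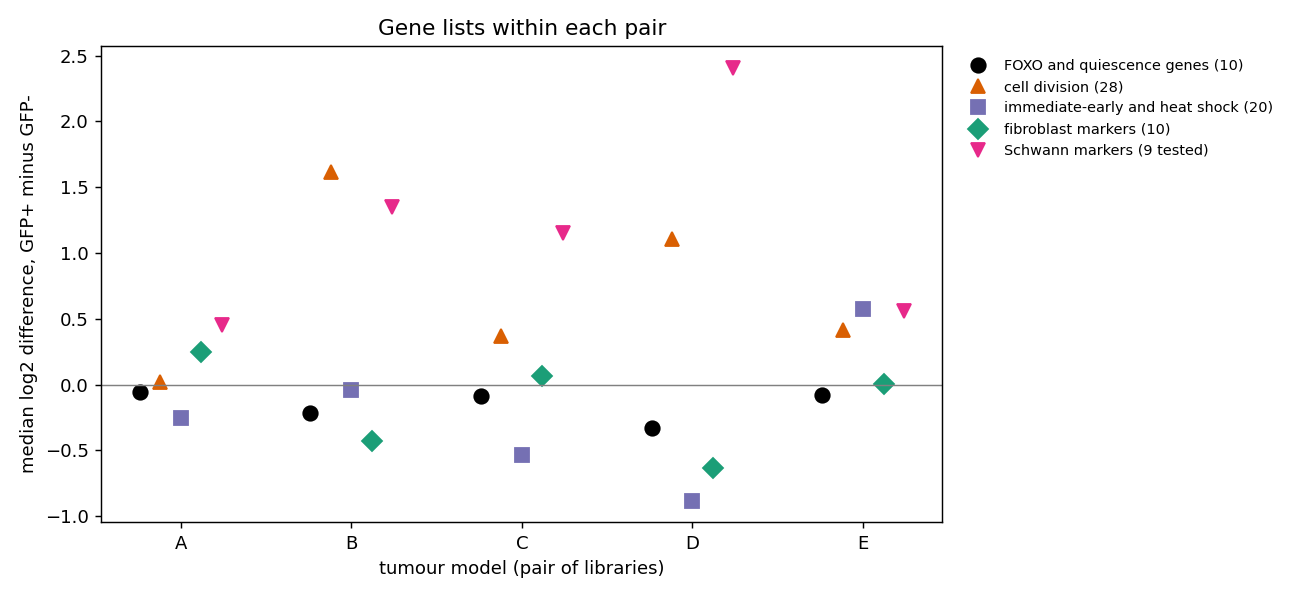
Median log2 difference, GFP+ minus GFP-, of 5 gene lists in each pair of libraries (x axis, tumour model). The FOXO and quiescence genes lie lowest in D and B, where the cell-division medians of 1.10 and 1.62 are the highest.

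Differences between tumour models were larger than those between populations for most members. Over the 10 libraries, models accounted for a median of 83.9% of the members' variance in log2 CPM and populations for 4.23%, with medians of 82.4% and 2.34% over all tested genes. Models take up 4 coefficients, more than populations do, which raises their share, and the shares were not adjusted for this. Txnip had the highest share for populations, 41.1%, beside 44.6% for models, and Foxo1 had the lowest share for models, 17.3%. In a test of all 4 model coefficients by edgeR's quasi-likelihood method, 6 of the 10 members passed an adjusted p of 0.05, beside 54.7% of all genes, so the members' share was near the background. Both libraries of a model come from the same allograft model, so this test sets the 5 models against the spread of pair differences, and it was not given whether those 2 libraries come from separate animals.

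The 6 genes were Foxo3 (adjusted p = 0.00195), Rbl2 (0.00375), Btg1 (0.00464), Ypel3 (0.00962), Ccng2 (0.0195) and Foxo4 (0.0257). Foxo3 averaged 303 CPM over the 2 libraries of model E and 131 CPM in model B, a ratio of 2.31. Rbl2 differed most, by a ratio of 2.74, with 93.4 CPM in C and 34.1 CPM in B. Ypel3 had 166 CPM in A and 68.8 CPM in B (ratio 2.41). Btg1 had 349 CPM in E and 318 CPM in C, with the other models between 185 and 217 CPM. Ccng2 had 102 CPM in A, and 54.2 to 74.0 CPM in the other models. Of these 6 genes, model B was the lowest for Foxo3, Foxo4, Ypel3 and Rbl2, C for Ccng2 and D for Btg1. The highest model was A for Ccng2 and Ypel3, C for Foxo4 and Rbl2, and E for Foxo3 and Btg1. Without pair C the members called were 4, since Ccng2 (adjusted p = 0.0512) and Foxo4 (0.0935) no longer passed. Without pair A Ccng2 (0.191) and without pair B Foxo4 (0.406) did not pass, while Txnip (0.0667 with all pairs) passed without pair B (0.0371) and without pair D (0.0206). With all pairs, Txnip also passed with no filter on low counts (0.0411) and by DESeq2 (0.0199), and 7 members were called in each.

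**Figure D4:**
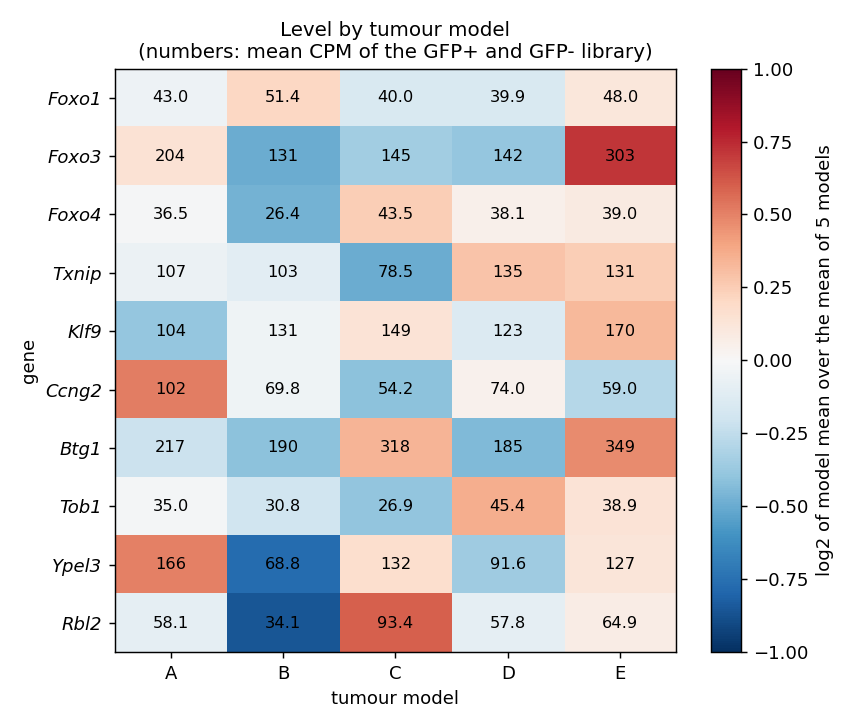
Mean CPM of the GFP+ and GFP- library of each tumour model (numbers in the cells) for the 10 members, coloured by the log2 ratio to the mean of the 5 models. Foxo3 in E, Rbl2 in C and Ypel3 and Ccng2 in A stand above the other models, and Rbl2 and Ypel3 in B stand below.

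In the lists of other pathway genes that follow, 0 genes passed the adjusted p by edgeR, as 0 of the 13986 tested genes did. DESeq2 passed 1 of them that was lower, Cdkn1b, and 12 that were higher, all in the cell-division list. Of 30 genes above FOXO (receptors, PI3K, AKT and SGK kinases, 14-3-3 proteins and regulators), 29 were tested, of which 16 had higher and 13 lower fitted values in GFP+ cells (median 0.0042). At an unadjusted p under 0.05, 2 were higher and 4 lower, beside 5.5% higher and 3.49% lower among all tested genes. The same shares stand beside the counts of the lists below. The kinase gene Sgk3 averaged 4.66 CPM (GFP+) and 6.73 CPM (GFP-), lower in 5 of 5 pairs (log2 -0.55, SE 0.16, adjusted p = 0.422 by edgeR). Foxm1, a forkhead factor of dividing cells, averaged 76.2 CPM (GFP+) and 58.0 CPM (GFP-), higher in 4 of 5 pairs (log2 0.39, SE 0.13, adjusted p = 0.461 by edgeR).

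Of 26 further FOXO targets, 25 were tested, with 8 fitted higher and 17 lower in GFP+ cells (median -0.074). At an unadjusted p under 0.05, 1 of the 25 was higher and 3 were lower, beside 5.5% and 3.49% of all tested genes. Cdkn1b, the gene of the kinase inhibitor p27, averaged 93.4 ± 10.6 CPM (GFP+) and 117 ± 19.2 CPM (GFP-), lower in 5 of 5 pairs (log2 -0.32, SE 0.075), with an adjusted p of 0.363 by edgeR and 0.0467 by DESeq2. The autophagy gene Map1lc3b (-0.23, SE 0.081) and the sestrin gene Sesn3 (-0.31, SE 0.11) had lower values, and the ubiquitin ligase gene Fbxo32, a FOXO target of wasting muscle, had higher values (0.32, SE 0.11). Their adjusted p by edgeR was 0.468 to 0.491. FOXO targets therefore did not share 1 direction. Their pair medians were -0.27, 0.074, -0.11, -0.14 and 0.096 in A to E, lowest in A and next lowest in D.

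Around Txnip, a list of arrestin-domain, Mondo and thioredoxin genes had 14 of 16 tested, 6 higher and 8 lower (median -0.048), with 1 higher and 2 lower at an unadjusted p under 0.05. The arrestin gene Arrb1 differed by 0.55 (SE 0.14), the Txnip relative Arrdc3 by -0.23 (SE 0.082) and the mitochondrial thioredoxin reductase gene Txnrd2 by -0.41 (SE 0.16). Hk2, a hexokinase gene, differed by 0.37 (SE 0.17). Arrdc4, the relative that Mondo factors induce together with Txnip, averaged 11.04 CPM in GFP+ cells (SD 2.38), against 13.7 CPM in GFP- cells (SD 7.26; log2 -0.18, SE 0.20). Of 16 Krüppel-like and glucocorticoid-response genes, 4 were higher and 12 lower (median -0.087), with 0 higher and 2 lower at an unadjusted p under 0.05. Those 2 were Klf15 (-0.56, SE 0.19) and Tsc22d3, the glucocorticoid-induced leucine zipper gene (-0.22, SE 0.092), each lower in 5 of 5 pairs. Klf13 differed by -0.17 (SE 0.097) and Klf2 by -0.33 (SE 0.20), and the adjusted p of these 9 genes was 0.379 to 0.838 by edgeR.

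The families of the antiproliferative members had mixed signs. Of 16 BTG, TOB and CCR4-NOT genes, 6 were higher and 10 lower, with a median of -0.015 and 0 at an unadjusted p under 0.05 in either direction. Btg2, the relative that p53 and immediate-early signals induce, averaged 70.7 ± 43.8 CPM (GFP+) and 83.5 ± 40.2 CPM (GFP-) (log2 -0.31, SE 0.27), and Tob2 averaged 92.1 ± 13.7 CPM (GFP+) and 89.9 ± 11.7 CPM (GFP-; log2 0.032, SE 0.079). Btg3 (-0.29, SE 0.22), the deadenylase scaffold gene Cnot1 (0.19, SE 0.14) and the deadenylase gene Pan2 (-0.093, SE 0.092) had adjusted p of 0.738 to 0.815 by edgeR. Of the 4 other YPEL genes, 2 were higher and 2 lower (median -0.14), with 1 higher, Ypel5, and 0 lower at an unadjusted p under 0.05. Ypel5, at 48.2 ± 7.62 CPM (GFP+) and 41.0 ± 6.63 CPM (GFP-), was higher in 5 of 5 pairs (log2 0.23, SE 0.072, adjusted p = 0.438 by edgeR), whereas Ypel3 was lower in 3 of 5. Ypel1 (-0.33, SE 0.23), Ypel4 (-0.35, SE 0.32) and Ypel2 (0.055, SE 0.14) completed the family, and per kilobase Ypel3 stood above all 4 (63.4 against 0.647 to 10.7 CPM per kilobase). Of 7 genes of cyclin G and its partners, 4 were higher and 3 lower (median 0.029, 0 at an unadjusted p under 0.05), with Ccng1 at -0.082 (SE 0.079), Ccni at -0.15 (SE 0.10), Ppp2ca at 0.092 (SE 0.076) and Ppp2r5b at 0.052 (SE 0.085).

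Around Rbl2, the list of 17 pocket protein, E2F and MuvB genes had 13 fitted higher and 4 fitted lower (median 0.13), with 3 higher and 0 lower at an unadjusted p under 0.05. Rbl1, the p107 gene, which is itself induced in cycling cells, averaged 22.3 ± 4.39 CPM (GFP+) and 15.4 ± 3.12 CPM (GFP-) and was higher in 5 of 5 pairs (log2 0.54, SE 0.17, adjusted p = 0.453 by edgeR). The MuvB subunit gene Lin9 differed by 0.52 (SE 0.17), the histone chaperone gene Rbbp4 by 0.19 (SE 0.080) and Mybl2, the partner of MuvB in dividing cells, by 0.76 (SE 0.33). Rb1 differed by -0.13 (SE 0.13), close to the -0.18 of Rbl2. All 28 cell-division genes had fitted values above 0 (median 0.71), 19 of them at an unadjusted p under 0.05, led by Prc1 (1.15, SE 0.20), Aurkb (1.18, SE 0.28), Top2a (1.18, SE 0.28) and Aurka (0.94, SE 0.23). The members' median of -0.17 was thus smaller in size than that of the cell-division list.

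**Figure D5:**
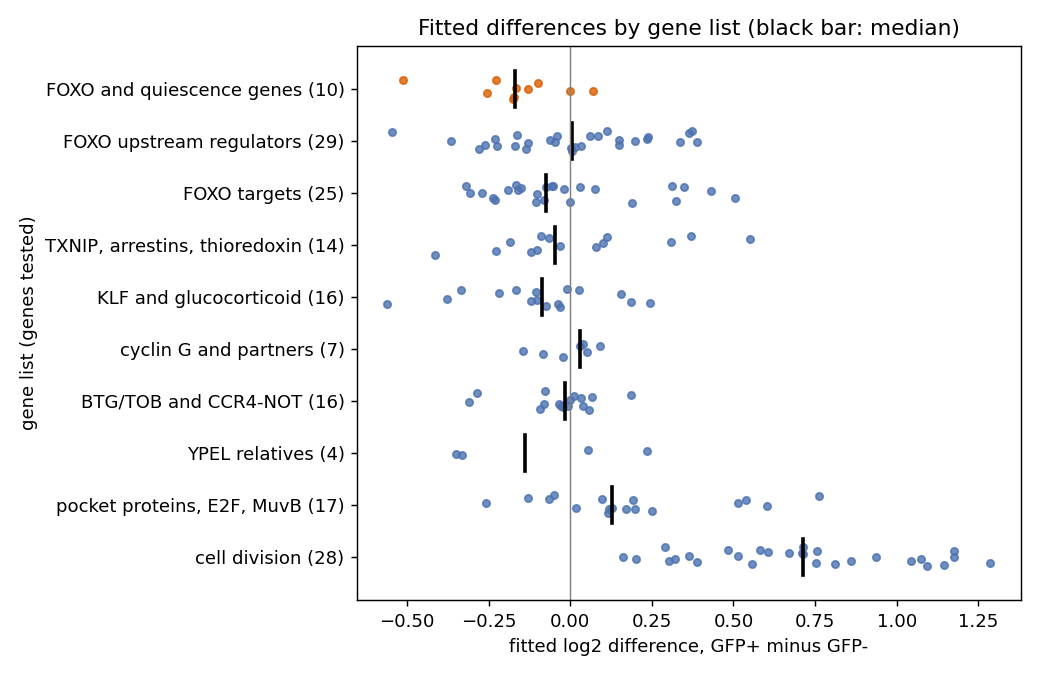
Fitted log2 difference, GFP+ minus GFP-, of each tested gene in 10 lists (number tested in brackets), with the list median as a black bar. The FOXO and quiescence genes centre at -0.17, the lists of their regulators and relatives have medians of -0.14 to 0.13, and the cell-division genes centre at 0.71.

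By Pearson's r of log2 CPM over the 10 libraries, which come from 5 models, the protein-coding genes most like each member were named from 9414 genes at a mean of 10 CPM or more. Txnip was most like N4bp2l1 (r = 0.903) and B230118H07Rik (0.885). Foxo3 was most like Usp54 (0.977) and Bap1 (0.974), and Rbl2 most like Nfat5 (0.983) and Slc7a6 (0.980). Btg1 followed Ccdc59 (0.971) and Sppl2b (0.966), Foxo4 followed Wdr83 (0.963) and Borcs8 (0.963), Ypel3 followed Serhl (0.956) and Spice1 (0.951), and Tob1 followed Dnaja1 (0.949) and Ppp3r1 (0.923). Ccng2 was most like Ddx39b (0.942) and Spred3 (0.927), and Klf9 most like Zfp771 (0.937) and Kctd1 (0.930). Foxo1 had the weakest likeness, 0.799 to Arhgap6 and 0.797 to Mbd2. These values are a description, since the 2 libraries of a model are not independent of each other.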

How the data were processed

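The authors deposited unnormalized read counts for every gene, made with STAR 2.4.2.8 on build mm10, per the submitters' processing notes. The sources used here do not give the annotation, library kit or strandedness. Of the 3 counts a gene has in STAR's output, that of the second strand was taken, since it held 96.9% to 97.1% of stranded gene reads. Multiply mapped reads (5.99% to 9.74%) and the other summary lines, 21.3% to 24.3% of reads together, stayed out of library sizes, which lowers genes that have near-identical copies. Symbols, coordinates and exonic lengths came from GENCODE vM21 (46005 of 46517 identifiers matched).

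Testing was two-sided with the quasi-likelihood method of edgeR 4.0.16 in R 4.3.3, after filterByExpr and TMM scaling. The coefficient was GFP+ minus GFP-, the block was the tumour model, and p-values had Benjamini-Hochberg adjustment over 13986 genes. Standard errors were derived from the F statistic. The pairing follows the series' design text and the model letters. Within pairs, the 2 libraries' deviations from their population means had correlations of 0.628 to 0.867. Nothing in the sources says whether the libraries come from separate animals, so p-values measure the spread between these pairs. Alternatives used DESeq2 1.42.0 and limma 3.58.1, other scalings and filters, no block, unstranded counts and leaving out each pair. The pipeline was tested on simulated counts. The members and lists were chosen with earlier results of these data known. Beside the members, the text names up to 4 genes of smallest p per list, close relatives and the 2 genes most like each member. Some genes that this rule names are not reported here.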

Additional observations from a re-analysis of the deposited data

Results flagged for a closer look

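Of 30 sets of 5 values examined for the 10 members (CPM in GFP+ cells, CPM in GFP- cells and pair differences), 1 had a sample far from the others, where chance gives about 1 in 20. Ccng2 stood at 99.7 CPM in GFP+ cells of model A, while the other 4 GFP+ libraries lay between 59.8 and 66.9 CPM, so that the gap took a share of 0.820 of the whole range, above the critical 0.71. The GFP- library of model A was also the highest of its population, at 105 CPM. Its relation to the model was not tested apart from the comparison between models.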

How the results depend on the processing

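With no filter on low counts edgeR called 47 genes between the populations and DESeq2 with the same block 195, against 0 in the main fit. Of the members DESeq2 called 1, Txnip, and every other alternative called 0. Without the replicate block the members' median was -0.16, against -0.17 with it, and 0 genes were called over all. Over the pair left out, the count of genes called between models ranged from 4038 (without pair C) to 7545, and the sign of 3 members turned: Ccng2 ranged from -0.085 to 0.097, Foxo1 from -0.28 to 0.10 and Tob1 from -0.085 to 0.17. Ccng2 was also 0.031 under library totals and 0.057 under limma voom. The cause was not tested. The other 132 values of single members kept their direction and their side of the threshold. Members had at least 449 reads in each library.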

Other observations

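Ratios of 2 genes within a pair do not depend on library scaling, and 2 such ratios, chosen after the values of their genes were seen, were lower in GFP+ cells in every pair. They were built from genes whose directions were already known, so they carry no test. The log2 ratio of Rbl2 to Rbl1, the p130 and p107 genes, differed by -0.48, -1.04, -0.56, -1.19 and -0.30 in pairs A to E, a mean of -0.71 ± 0.38 (SD, n = 5 pairs). The log2 ratio of Foxo3 to Foxm1 differed by -0.21, -0.92, -0.69, -0.70 and -0.56, a mean of -0.62 ± 0.26 (SD, n = 5 pairs). In each ratio the numerator was fitted lower and the denominator higher in GFP+ cells, and neither gene passed the adjusted p by edgeR.

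Gm15441, the gene antisense to Txnip (chromosome 3, 96555765 to 96566801, minus strand), had 9 to 34 reads per library. It stood at 1.36, 0.62, 0.54, 0.75 and 1.09 CPM in GFP+ cells of models A to E, against 1.23, 0.46, 0.50, 2.16 and 1.10 CPM in GFP- cells. The GFP- library of model D was the highest for both Gm15441 and Txnip.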
